A study of Mus musculus with 7 samples.

Results

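Genes that the epididymis secretes or places on sperm were followed here through mouse fat from around that organ: Serpina1f, Spink8, Lcn5, Lcn8, Lcn9, Gpx5, Rnase9, Adam7, Cst11 and Crisp1. A gene was read from a probe set that the array's annotation pairs with exactly 1 gene symbol, and of several such probe sets the brightest was to be taken. In this way 9 of the 10 genes had a value, out of 19938 genes on the array, and each of the 9 had 1 probe set. Crisp1 had no such probe set and is not described further by expression. The genes were picked because of how Serpina1f behaved in these same 7 libraries, so their own values are given as a description, without a test.

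Epididymal white fat was taken from chow-fed male mice on the C57Bl/6J background at 17 weeks of age, and its RNA was measured on Affymetrix Mouse Gene 1.0 ST arrays. The wild type group held 4 libraries, replicates 1 to 4. The aP2-XBP1 transgenic group held 3, replicates 1 to 3, from mice that overexpress XBP1 in fat. XBP1 switches on the genes that help a stressed endoplasmic reticulum to fold proteins. The aP2 promoter is that of Fabp4, which is active in adipocytes and also in macrophages. The labels do not say whether each library came from an animal of its own, so the spread between libraries may be technical in part. All levels below are log2 expression values after RMA, and a difference of 1 is a doubling. Some libraries stood apart by markers of other male organs: late spermatid genes were high in wild type replicate 4 and seminal vesicle genes in wild type replicate 2, with values given further on.

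The epididymis is the coiled duct in which sperm from the testis mature and are stored. Its wall of principal, basal, narrow and clear cells lies inside a coat of smooth muscle, and it is divided along its length into initial segment, caput, corpus and cauda. Each region secretes its own mixture of protease inhibitors, lipocalins, antioxidant enzymes and sperm-coating proteins, and the initial segment depends on factors that arrive from the testis in the lumen. Lcn8, Lcn9, Lcn5, Gpx5 and Adam7 are known as genes of the proximal duct, the initial segment and the caput.

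Promoter windows of 300 bases, from 250 before to 50 after the start of the gene, were given by RefSeq (build GRCm38.p6) for 7 of the 10 genes: Serpina1f, Lcn5, Lcn8, Lcn9, Gpx5, Rnase9 and Crisp1. The windows of Serpina1f (chr12:103695480-103695779, minus strand), Lcn8 (chr2:25652868-25653167, plus strand) and Lcn9 (chr2:25822903-25823202, plus strand) are printed because Serpina1f set the first pattern described here, and Lcn8 and Lcn9 stood apart together in another library. They are written 5′ to 3′ along the gene, and the capital letter marks the first base of the gene.
Serpina1f: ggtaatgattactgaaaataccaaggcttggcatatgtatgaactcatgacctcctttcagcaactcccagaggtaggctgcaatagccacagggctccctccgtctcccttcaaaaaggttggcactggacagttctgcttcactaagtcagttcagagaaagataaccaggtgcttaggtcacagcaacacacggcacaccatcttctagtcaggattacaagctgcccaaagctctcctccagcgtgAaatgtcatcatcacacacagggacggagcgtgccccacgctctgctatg
Lcn8: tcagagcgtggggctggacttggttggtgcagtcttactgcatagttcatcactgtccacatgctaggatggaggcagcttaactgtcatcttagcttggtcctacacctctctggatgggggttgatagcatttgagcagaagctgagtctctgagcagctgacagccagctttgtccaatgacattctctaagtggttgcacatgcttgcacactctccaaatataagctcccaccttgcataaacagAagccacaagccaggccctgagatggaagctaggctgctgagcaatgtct
Lcn9: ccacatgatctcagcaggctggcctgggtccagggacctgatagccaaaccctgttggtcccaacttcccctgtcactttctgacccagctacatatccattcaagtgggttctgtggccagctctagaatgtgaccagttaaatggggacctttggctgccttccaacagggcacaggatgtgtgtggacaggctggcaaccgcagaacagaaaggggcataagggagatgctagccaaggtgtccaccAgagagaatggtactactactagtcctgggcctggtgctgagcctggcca
G and C made up 50.3% of the window of Serpina1f, 50.3% of that of Lcn8 and 55.3% of that of Lcn9.

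Serpina1f and Spink8 divided the wild type group. Wild type replicates 1, 3 and 4 held high levels of both, while every transgenic library and wild type replicate 2 held low levels. None of the other 7 genes had this division. To describe it, the 7 values of a gene were put in order, and the largest gap between neighbours in that order was called its break. A gene was said to follow Serpina1f where the same libraries stood above the break and the break was at least 1. Most low values of these genes lay near the lower quartile of the arrays (2.64 to 2.68), where background could not be read from this table, so a break from them may understate the step and is not given as a fold.

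Serpina1f (probe set 10402383) encodes a member of the serpin family of protease inhibitors and is known from the epididymis. It read 10.70, 2.74, 10.84 and 11.50 in wild type replicates 1 to 4 and 2.90, 3.73 and 2.83 in transgenic replicates 1 to 3. Its break was 6.97, between wild type replicate 1 and transgenic replicate 2. Because 1 wild type library lay below all 3 transgenic libraries, the groups overlapped. The wild type mean was 8.95 ± 4.15 (SD, n = 4) and the transgenic mean 3.15 ± 0.50 (SD, n = 3), a difference of -5.79 (SE 2.18).

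Spink8 (10589407), a Kazal-type serine protease inhibitor, followed the same libraries. Its values were 8.82, 2.45, 8.89 and 9.51 in wild type and 2.78, 2.89 and 2.63 in transgenic fat. The break was 5.94, and the groups again overlapped only through wild type replicate 2, which held the lowest value. The group means were 7.42 ± 3.33 (SD, n = 4) and 2.77 ± 0.13 (SD, n = 3), with a difference of -4.65 (SE 1.74). The order of the 3 strong libraries was that of Serpina1f: wild type replicate 4 exceeded replicate 1 by 0.69 in Spink8 and by 0.80 in Serpina1f, and replicate 3 exceeded replicate 1 by 0.07 and 0.14.

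So 2 of the 9 genes followed Serpina1f, itself included. Over the whole array 81 of 21789 probe sets with 1 symbol did so (0.372%), or 78 of 19938 genes. Since Serpina1f set the libraries, this share says nothing on its own about the 9 genes. The same 2 genes followed with any 1 of the 7 libraries left out. In bulk fat, fewer cells of a type and less RNA per cell cannot be told apart.

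**Figure D1:**
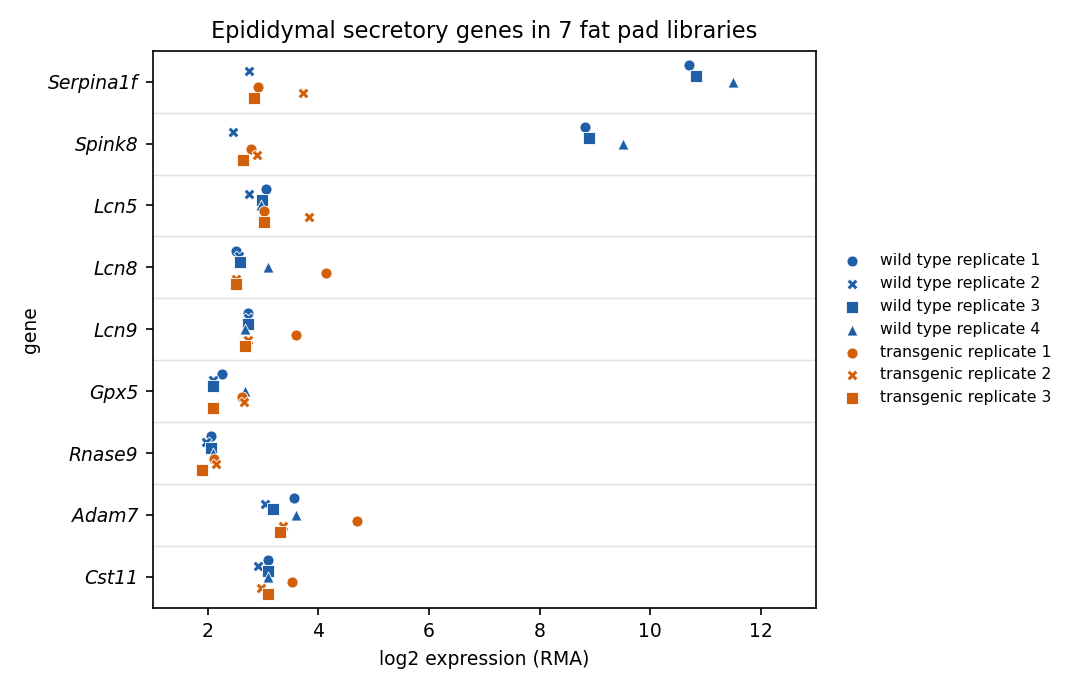
Log2 expression after RMA (horizontal axis) of the 9 measured genes (rows) in each of the 7 libraries, with blue for wild type and orange for transgenic and the replicate shown by the marker. Serpina1f and Spink8 lie above 8 in wild type replicates 1, 3 and 4 only, while Lcn8, Lcn9, Adam7 and Cst11 have their highest value in transgenic replicate 1.

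Cst11 (10488404), another protease inhibitor of the set, is a cystatin, a class that blocks cysteine proteases. It did not follow Serpina1f. It read 3.08, 2.91, 3.08 and 3.08 in wild type and 3.52, 2.96 and 3.08 in transgenic fat. The 4 libraries at 3.08 shared an identical value. Transgenic replicate 1 stood alone above a break of 0.44. The group difference was 0.15 (SE 0.14), and -0.02 without transgenic replicate 1.

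Lcn8, Lcn9 and Lcn5, lipocalins that carry retinoids and other lipophilic molecules, were each highest in a transgenic library. Lcn8 (10470141) read 2.51, 2.56, 2.57 and 3.09 in wild type and 4.14, 2.51 and 2.51 in transgenic fat. Transgenic replicate 1 exceeded the next library, wild type replicate 4, by 1.05. The means of 2.68 ± 0.27 (SD, n = 4) and 3.05 ± 0.94 (SD, n = 3) differed by 0.37 (SE 0.43), less than the spread between transgenic libraries. Without transgenic replicate 1 the difference was -0.17.

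Lcn9 (10470206) was flatter and had the same top library. Its values were 2.72, 2.72, 2.72 and 2.68 in wild type and 3.60, 2.72 and 2.66 in transgenic fat, and 4 libraries shared an identical value. The step to transgenic replicate 1 was 0.88. The difference between groups was 0.29 (SE 0.23), and -0.02 when that library was left out.

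Lcn5 (10470149), a retinoic acid-binding lipocalin, had another top library. It read 3.04, 2.74, 2.98 and 2.95 in wild type and 3.02, 3.82 and 3.02 in transgenic fat. Here transgenic replicate 2 stood alone, 0.78 above wild type replicate 1, and transgenic replicate 1 was level with the rest. The means of 2.93 ± 0.13 (SD, n = 4) and 3.29 ± 0.46 (SD, n = 3) differed by 0.36 (SE 0.21), and by 0.09 without transgenic replicate 2. Lcn5 and Lcn8 are adjacent measured genes on chromosome 2 and reached their highest values in different libraries. Transgenic replicate 2 was also the highest of the 4 weak libraries for Serpina1f and Spink8, at 3.73 and 2.89.

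The other genes named Lcn on the array had smaller steps, and their top libraries were mixed. Lcn6 read 2.82 in transgenic replicate 1 against at most 2.62 elsewhere, and Lcn10 read 2.90 there against 2.70 in transgenic replicate 3. Lcn12 and Lcn3 were highest in transgenic replicate 2, at 3.81 and 2.41, and Lcn11 in transgenic replicate 3, at 2.82. Lcn15, which lies next to Lcn8, was highest in wild type replicate 1 at 2.47, as was Lcn4 at 2.27, and Lcn2 was highest in wild type replicate 4 at 9.05. Of all 11 Lcn genes, Lcn5, Lcn8 and Lcn9 included, 4 were highest in transgenic replicate 1, 3 in transgenic replicate 2, 1 in transgenic replicate 3 and 3 in wild type libraries. By comparison, 14.2% of all probe sets had their highest value in transgenic replicate 1. This family was read after the values of its members were seen, and apart from Lcn5, Lcn8 and Lcn9 the top library exceeded the next by at most 0.36.

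Adam7 (10421106) encodes a membrane protein of the ADAM family that the caput epithelium passes to sperm. It read 3.55, 3.04, 3.17 and 3.60 in wild type and 4.69, 3.36 and 3.30 in transgenic fat. Transgenic replicate 1 lay 1.10 above wild type replicate 4. Apart from this library the groups overlapped fully. The means of 3.34 ± 0.28 (SD, n = 4) and 3.78 ± 0.79 (SD, n = 3) differed by 0.44 (SE 0.37), and by -0.01 without transgenic replicate 1. Its neighbour Adam28, another ADAM family member, read between 3.09 and 3.26 in all 7 libraries.

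Gpx5 and Rnase9 followed neither pattern. Gpx5 (10407999), the secreted glutathione peroxidase that protects sperm from lipid peroxidation, read 2.25, 2.10, 2.10 and 2.68 in wild type and 2.61, 2.65 and 2.10 in transgenic fat. Its break was 0.35, with wild type replicate 4 and transgenic replicates 1 and 2 above it. The group difference of 0.17 (SE 0.20) was below the SD of either group, 0.27 in wild type and 0.31 in transgenic fat. Rnase9 (10419553), a ribonuclease A family member that lacks the usual catalytic residues, ranged only from 1.90 to 2.15 over the 7 libraries. Its break was 0.09 and its group difference 0.01 (SE 0.07).

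Transgenic replicate 1 alone stood above a break of at least 1 in 4 of 21789 probe sets (0.0184%), and 2 of these were Lcn8 and Adam7. The other two were Cxcl13, a chemokine that attracts B cells, with a break of 1.42, and Pla2g2d, a secreted phospholipase A2 of lymphoid tissue, with 1.02. With a break of at least 0.5 the count was 34 probe sets (0.156%), among them Lcn8, Lcn9 and Adam7. Of the 63 other epididymal genes described below, 0 had transgenic replicate 1 alone above such a break. So few genes would hold few such breaks at the array's share. This way of counting was chosen after the values were seen, and no test of it is given. Cxcl13 read 8.25 in transgenic replicate 1 and between 4.54 and 6.83 in the other 6 libraries. Its part in the result was not tested.

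**Figure D2:**
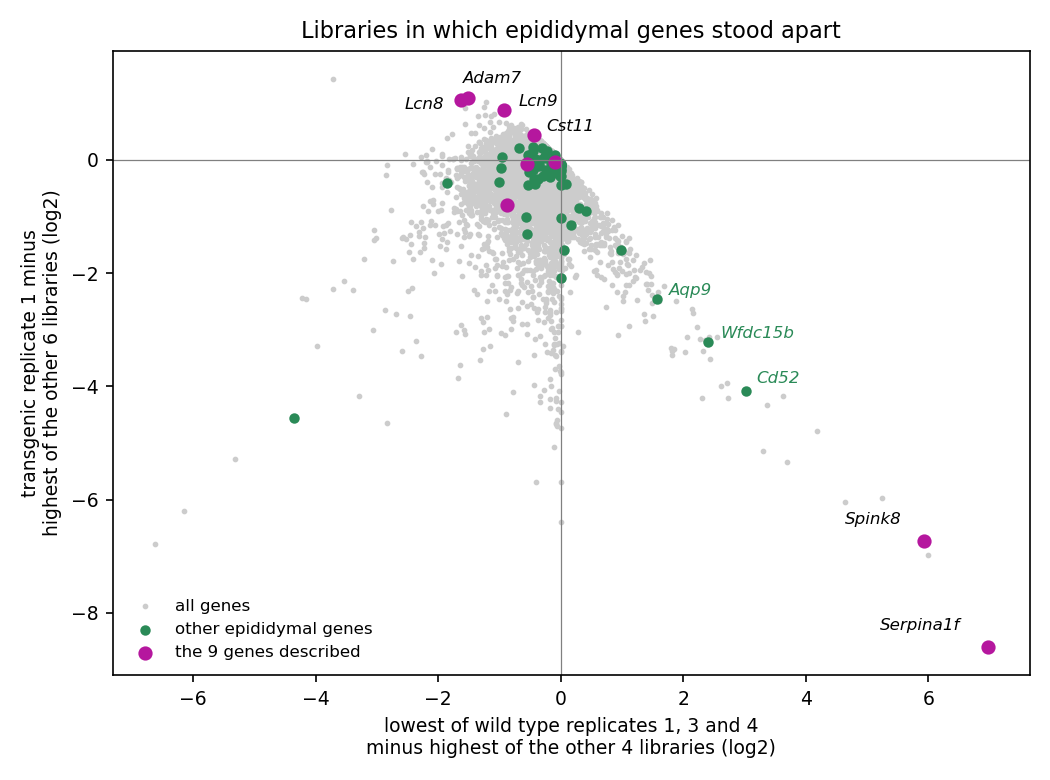
Each point is a gene: the horizontal axis gives the lowest of wild type replicates 1, 3 and 4 minus the highest of the other 4 libraries, and the vertical axis gives transgenic replicate 1 minus the highest of the other 6 libraries, both in log2. Serpina1f (6.97) and Spink8 (5.94) lie far to the right, Adam7 (1.10), Lcn8 (1.05) and Lcn9 (0.88) at the top, and most of the other epididymal genes near the origin.

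The genes whose profiles were most like that of Serpina1f were sought over all genes, as the root mean square difference over the 7 libraries after each profile was centred on its median. Ptgs2, the inducible cyclooxygenase that makes prostaglandin precursors, was the nearest, with a difference of 0.75. It read 11.09, 4.98, 11.28 and 11.84 in wild type and 4.85, 5.10 and 4.20 in transgenic fat, a break of 5.99. Spink8 came next at 0.83. Defb42, a beta-defensin of the epididymis, followed at 1.24, with 8.41, 2.51, 8.41 and 9.14 in wild type and 3.17, 2.69 and 2.48 in transgenic fat.

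The next 7 were Pcp4 (a calmodulin-binding peptide, 1.60), Cnn1 (calponin of smooth muscle, 2.19), Anxa13 (an annexin of epithelia, 2.32), Actg2 (enteric smooth muscle actin, 2.32), P2rx1 (an ATP-gated channel of smooth muscle, 2.43), Cd52 (2.62) and Gldc (glycine decarboxylase, 2.77). All 10 had wild type replicates 1, 3 and 4 above the break, with breaks from 2.72 in Gldc to 5.99 in Ptgs2. Among the genes that followed Serpina1f, only Serpina1f itself and Ptgs2 had a larger break than Spink8. The other 7 measured epididymal genes lay between 4.76 (Gpx5) and 4.85 (Lcn9) from Serpina1f, at ranks 3527 to 14800 of all genes. Any gene nearly flat over the 7 libraries lies about this far from Serpina1f, so these ranks do not order the 7 genes by likeness.

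**Figure D3:**
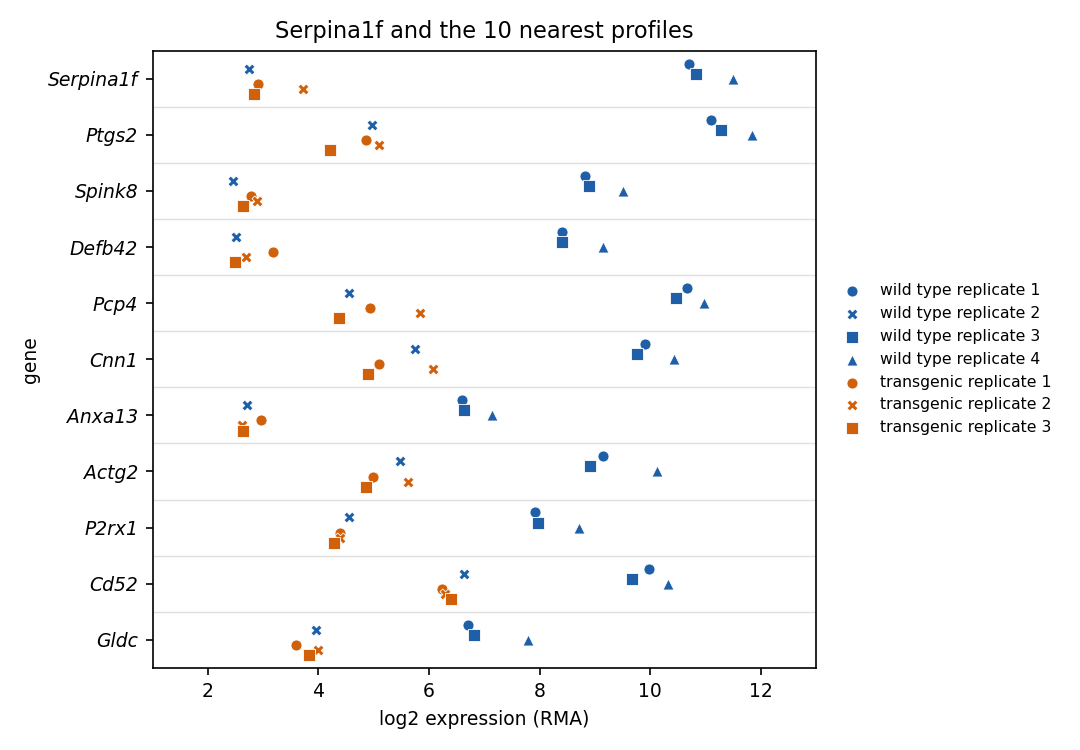
Log2 expression after RMA (horizontal axis) of Serpina1f and the 10 genes with the nearest profiles (rows, nearest at the top) in each library, coloured as wild type (blue) or transgenic (orange). In all 11 genes wild type replicates 1, 3 and 4 lie to the right of the other 4 libraries, which do not keep a common order among themselves.

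Among the 78 genes that followed Serpina1f, 28 had a break of at least 2. Wild type replicate 4 was the highest library in 72 of them, replicate 1 in 3 and replicate 3 in 3. The median excess of wild type replicate 4 over replicate 1 was 0.63 (quartiles 0.39 and 0.80), so that Serpina1f and Spink8, at 0.80 and 0.69, lay at the upper quartile and within the quartiles. The highest of the 4 weak libraries was wild type replicate 2 in 17, transgenic replicate 1 in 23, transgenic replicate 2 in 27 and transgenic replicate 3 in 11. No genotype thus held the upper end of the weak libraries for all of these genes.

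Other genes were taken from 6 lists of epididymal genes arranged by role, and not all of these genes mark the epididymis alone. Of 69 listed genes 63 were measured, and 3 of the 63 followed Serpina1f (4.76%, against 0.391% of all genes). Their median break was 0.27, beside 0.18 over all genes, and 52 of the 63 had a break below 0.5. Their median group difference was -0.0049, beside 0.01 over all genes.

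The 3 were a protease inhibitor, a channel and a sperm surface protein. Wfdc15b, a small protein with a WAP domain as found in protease inhibitors, read 6.16, 3.23, 5.85 and 6.68 in wild type and 3.45, 3.37 and 2.92 in transgenic fat, a break of 2.40. Aqp9, a channel for water and glycerol that is abundant on epididymal principal cells, read 6.80, 5.11, 6.91 and 7.69 against 5.23, 4.82 and 4.48, a break of 1.57. Cd52, the short glycoprotein that is transferred to sperm in the distal duct and is also carried by lymphocytes, read 9.98, 6.64, 9.67 and 10.33 against 6.24, 6.29 and 6.40, a break of 3.03. Cd52 and Aqp9 are also expressed by blood cells, and neither gene marks the epididymis alone.

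By role, 1 of 20 epididymal protease inhibitors followed Serpina1f. The largest breaks among the rest were those of Spink2 (2.09) and Wfdc15a (1.11), each with wild type replicate 4 alone above. The 10 late spermatid genes described below had the same library alone above, so these breaks are not read as epididymal. Of lipocalins 0 of 5 followed Serpina1f, with Lcn2, a lipocalin of inflammation, lowest in wild type replicate 1 (6.84, against 8.05 to 9.05 elsewhere). Of ribonucleases 0 of 4 did, and their largest break was 0.56 in Rnase12. Of enzymes and redox genes 1 of 6 did.

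Of the sperm-binding proteins 1 of 14 followed Serpina1f. Pate4, a small secreted protein, had wild type replicate 2 alone above a break of 3.50, at 6.55. Transgenic replicate 3 came next at 3.05. The 7 seminal vesicle genes described below also had wild type replicate 2 alone above. Pate4 stays in the count but is not read here as a mark of the epididymis. Eddm3b had the same libraries above as Serpina1f with a break of 0.42. Crisp4, a relative of Crisp1 from the caput, read 2.00 to 2.07 throughout.

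Of the initial segment and caput regulators 0 of 14 followed Serpina1f at a break of 1. Pax8, a transcription factor of the developing duct, had the same libraries above and a break of 0.98, just outside the threshold: 6.28, 5.09, 6.32 and 6.58 in wild type and 4.98, 5.30 and 4.77 in transgenic fat. The receptor tyrosine kinase Ros1, which the initial segment needs to form, read between 2.28 and 2.49. Etv4, an ETS transcription factor known from the initial segment, read between 2.80 and 3.37. Just inside the threshold were Cald1 (1.00) and Acta2 (1.06), and just outside it were Hpgd (1.00 after rounding), Pax8 and Defb43 (0.97).

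Markers of cell types that the duct and its coat contain were read in the same way. Bulk libraries do not show which tissue such cells came from. Smooth muscle genes followed Serpina1f in 7 of 10, with the largest breaks in Cnn1 (3.69), Actg2 (3.31), Myh11 (2.39) and Des (1.81). The median level of the smooth muscle list was 9.23, 6.52, 9.12 and 9.97 in wild type replicates 1 to 4 and 6.80, 6.71 and 6.25 in transgenic replicates 1 to 3. Its part in the division of Serpina1f and Spink8 was not tested. Smtn had the libraries of Serpina1f above a break of 0.27, below the threshold. Synpo2 (1.13) and Lmod1 (0.45) did not follow because their largest gap lay just above transgenic replicate 3, their lowest library. In both, wild type replicates 1, 3 and 4 still exceeded all other libraries. They read at least 6.88 against at most 6.71 in Synpo2, and at least 5.37 against at most 4.98 in Lmod1.

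Ductal epithelium markers followed in 1 of 10, the tight junction gene Cldn4 (break 1.19), with a median level of 5.82, 4.90, 6.25 and 6.73 in wild type and 5.18, 5.37 and 4.73 in transgenic fat. Esrp1, a splicing regulator of epithelia, and Cldn7 had the same libraries above, with breaks of 0.74 and 0.57. In Epcam, Cdh1 and Cldn3 wild type replicates 1, 3 and 4 also exceeded all other libraries, though the largest gap lay elsewhere. They did not in Krt8, Krt18, Krt19 and Elf3. The transgenic mean was the lower in 9 of these 10 genes, beside 9116 of all 19938 genes. Clear and narrow cell markers followed in 0 of 8 and basal cell markers in 0 of 5. The basal list had a median level of 3.98, 3.40, 3.91 and 4.13 in wild type and 3.50, 3.81 and 3.59 in transgenic fat. Wild type replicates 1, 3 and 4 exceeded all other libraries in Krt5, in Cldn1 and, barely, in Trp63. They did not in Krt14 and Krt15. The narrow cell regulator Foxi1 read 2.57 to 2.82 throughout. The proton pump subunit Atp6v0d2, which osteoclasts and macrophages also express, read 8.75, 7.56, 8.67 and 4.26 in wild type and 4.57, 4.84 and 6.46 in transgenic fat.

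Markers of other male organs stood apart in other libraries. In all 10 late spermatid genes wild type replicate 4 stood alone above the break, with Prm2, a protamine, at 9.76 there. In all 7 seminal vesicle genes it was wild type replicate 2, with Svs2 at 9.36 there and at 5.22 in transgenic replicate 3. Testis somatic genes followed Serpina1f in 0 of 6, and Cyp17a1 reached 5.83 in wild type replicate 4. So wild type replicate 2, in which Serpina1f and Spink8 were weak, was the library with the highest level of seminal vesicle genes, and the part of these tissues in the values above was not tested.

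The tissue was fat by its defining markers. Adiponectin (Adipoq) read between 11.09 and 11.83 in the 7 libraries and Fabp4 between 11.77 and 12.34. Of 9 adipocyte genes 0 followed Serpina1f, and the list's median was 10.63, 11.35, 10.71 and 11.15 in wild type and 11.46, 11.44 and 11.45 in transgenic fat. Xbp1 read 8.90, 9.07, 8.94 and 9.19 in wild type and 9.76, 9.99 and 9.66 in transgenic fat, with no overlap. In each of the 9 epididymal genes the groups overlapped.

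**Figure D4:**
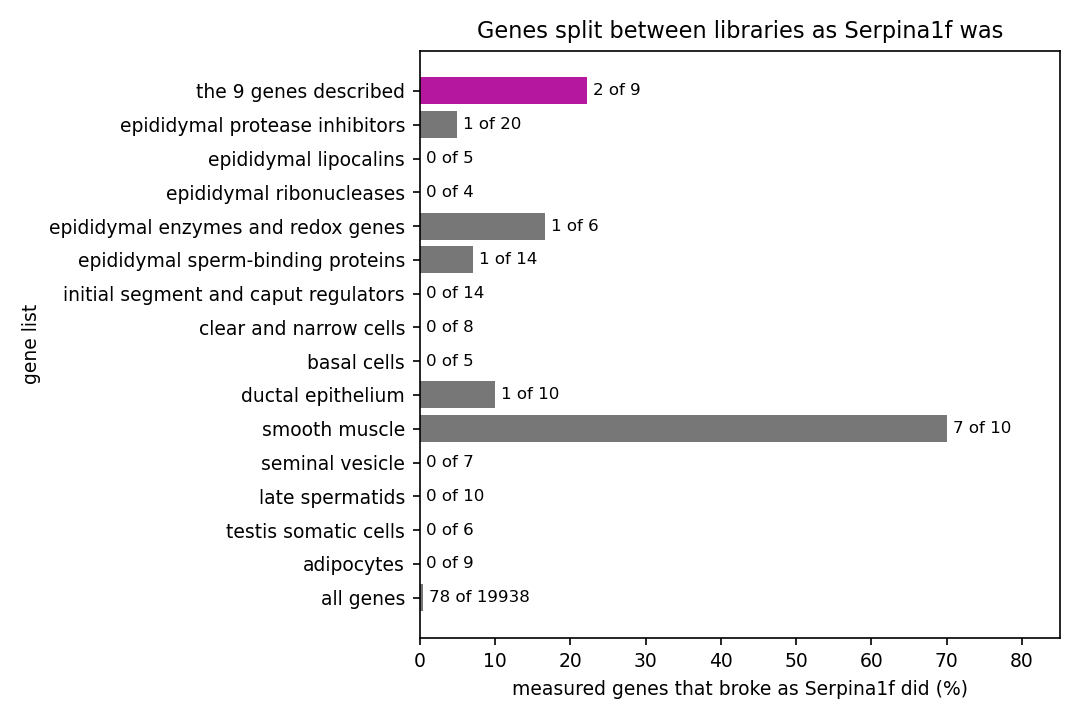
Bars give the percentage of measured genes in each list that followed Serpina1f (the same libraries above a break of at least 1), with counts beside them. Smooth muscle reaches 7 of 10, the 9 genes described 2 of 9, and all genes 78 of 19938. The 2 of 9 include Serpina1f, which set the libraries, and the 9 genes were picked on these values. Their bar is therefore not to be compared with that of all genes.

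The chromosomal neighbours of the 9 genes were read in the same way. Taking the 5 nearest measured genes on either side in RefSeq order gave 78 distinct genes that are not among the 9, of which 0 followed Serpina1f and 0 had transgenic replicate 1 alone above a break of 0.5. So few genes would hold few such breaks at the array's shares given above. Serpina1f lies in a cluster of serpins, and Serpina16 and Serpina1d, on either side of it, read 2.55 to 3.03 and 2.23 to 2.86. Serpina1c was highest in transgenic replicate 2 and wild type replicate 2, at 4.61 and 3.98. Next to Cst11 the cystatins Cst12, Cst13 and Cst9 were highest in wild type replicate 4, at 2.46, 3.11 and 3.25. Eddm3b, the neighbour of Rnase9 named above, had the libraries of Serpina1f above a break below the threshold.

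Across the genotypes, the comparison the study was set up for, limma called 0 of 21789 probe sets (0.0%) at an adjusted p under 0.05, the 9 genes included. Xbp1 was not called either, though its groups did not overlap (difference 0.77, SE 0.105). The 0 calls therefore do not show that no gene differed. The smallest limma adjusted p was 0.622, and at an unadjusted p under 0.05 the transgenic mean was the higher in 1050 probe sets and the lower in 679. That balance moved with the setting, to 1900 and 446 with arrays shifted to a common median, 837 and 830 with the replicate block, and 801 and 901 without wild type replicate 4. Of the 9 genes 2, Serpina1f and Spink8, had a lower and 7 a higher transgenic mean. The 7 higher means ranged in difference from 0.01 (Rnase9) to 0.44 (Adam7). When wild type replicate 2 was left out, limma gave 84 calls with a lower transgenic mean (0.386%) and 7 with a higher one, and the 84 included Serpina1f (-7.86, SE 0.33) and Spink8 (-6.31, SE 0.20). Nothing is read from these calls for either gene, since both were chosen on values of the same libraries.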

How the data were processed

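RNA of 7 epididymal fat samples was measured on 1-colour arrays. The authors deposited 1 table of log2 values, made with RMA per the submitters' processing notes; probe set definition, filters and genome build are not given in the sources at hand. The table holds 35556 probe sets, of which 21789 carry 1 gene symbol (19938 genes), 1621 several and 12146 none or are unlisted. A gene was read from its probe set with the highest mean, and 0 sample columns were unused. Scanner files were not used, so probe background could not be checked; the number of arrays limits the precision. Quartiles were alike across arrays (medians 3.99 to 4.04), and at most 18.1% of probe sets held the same value in a pair.

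Genotype differences came from limma 3.58.1 in R 4.3.3 (two-sided, Benjamini-Hochberg, threshold 0.05), tested on simulated data. The promoter motif search that was planned is not reported here. Breaks and figures came from Python 3.11.15, pandas 2.3.3 and matplotlib 3.10.9. The genes, lists and rules were chosen with earlier results of these data known. Genes named were the 10, Xbp1, Fabp4 and Adipoq, the 10 profiles nearest to Serpina1f and the largest breaks of each list; others named, among them the neighbours, the genes near the threshold and those high in transgenic replicate 1, were chosen after their values were seen. Among listed genes without a value were Cst8, Akr1b7, Ggt1, Teddm1, Ly6g5b, Insl3 and Cfd. Alternatives were other scaling, break minimums of 0.5 and 2, other probe sets, other limma settings, the replicate number as a block and leaving out each library. Counts for transgenic replicate 1 alone were added after the data were seen.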

Additional observations from a re-analysis of the deposited data

Results flagged for a closer look

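Among the 4 wild type libraries 5 of the 9 genes had a library far from the others, measured as its gap to the nearest library over the whole range (Dixon's test at 95%). Chance flags about 1 in 20 groups of independent values, but 5077 of the 21789 probe sets (23.3%) were past the same value in wild type, so the count of 5 says little about these genes. For Serpina1f and Spink8 the ratios restate the values by which the genes were chosen. In Serpina1f wild type replicate 2 was the lowest, with a ratio of 0.908, and in Spink8 the same library had 0.903. In Lcn8 wild type replicate 4 was the highest, at 3.09 and a ratio of 0.885. In Lcn9 wild type replicate 4 was the lowest, with a ratio of 1.0 because the other 3 libraries shared a value, standing at 2.68 against 2.72. In Cst11 wild type replicate 2 was the lowest, also with a ratio of 1.0, at 2.91 against 3.08 in the others. The flags of Serpina1f and Spink8 are large in size, those of Lcn9 and Cst11 span under 0.2 on the log2 scale. The transgenic group of 3 was not tested in this way.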

How the results depend on the processing

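The number of probe sets limma called between genotypes was 0 under each alternative, including the replicate block and an adjusted p of 0.1, except that leaving out each library gave 0 to 91, the 91 without wild type replicate 2. Libraries of the same replicate number had weak correlations of deviations from the group means (-0.139, -0.095 and 0.058). The labels do not say whether the numbers pair the samples, and these correlations cannot decide it. With the replicate block the difference was -4.94 in Serpina1f and -3.96 in Spink8, the same as without wild type replicate 4. No transgenic library carries the number 4, so the block takes wild type replicate 4 out of the genotype difference. Serpina1f and Spink8 were the 2 of the 9 genes that followed Serpina1f under every scaling, break minimum and left-out library; with 1 probe set per gene, the probe set choice could not change it. Over all probe sets the count moved from 81 to 170 at a break of 0.5, 28 at 2 and 140 without wild type replicate 4. The count with transgenic replicate 1 alone above the break was 2 under both scalings and 3 at a break of 0.5. Group differences of the 9 genes moved by less than the SD between replicates in all 122 refits, but 7 changed sign: without transgenic replicate 1 Lcn8 (-0.17), Lcn9 (-0.02), Adam7 (-0.01), Cst11 (-0.02) and Rnase9 (-0.02), and Rnase9 without wild type replicate 2 (-0.01) and without transgenic replicate 2 (-0.03). In Lcn9, Cst11, Gpx5 and Rnase9 some libraries shared an identical value, and signal over background could not be read from this table.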
